A study of Mus musculus with 12 samples.

Results

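Krt7, Krt8, Krt18 and Krt19, which encode keratins of simple epithelia, and Dsp, Jup and Pkp2, which encode plaque proteins of the desmosome, were followed in microRNA-deficient mouse embryonic stem cells (ESCs). These 7 of the 18412 genes in the deposited tables were taken by symbol. They had been chosen because their exonic reads differed between knockout and wild type in these same tables. Their differences are therefore described without a test.

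Keratins are intermediate filament proteins that assemble as pairs of a type II chain (Krt7, Krt8) with a type I chain (Krt18, Krt19). Krt8 and Krt18 are the first pair made in the embryo, in the outer cells that form trophectoderm, and undifferentiated ESCs are known for low keratin levels. Desmosomes anchor these filaments at cell contacts: the cadherins desmoglein and desmocollin bind plakoglobin (Jup) and plakophilins (Pkp2), and desmoplakin (Dsp) ties that plaque to the filaments.

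The groups were a Dicer1-/- line (Dicer1 KO) set against the wild-type line TFC, and a Dgcr8-/- line (Dgcr8 KO) set against the wild-type line V6.5, with 3 libraries each. Dicer1 is the nuclease that cuts microRNA precursors, and Dgcr8 the partner of Drosha in the nuclear step before it. All 12 libraries were polyadenylated RNA of mouse ESCs grown on gelatin in serum with leukaemia inhibitory factor. The series' description calls both mutants stable, and does not say how many clones they represent or which exons were deleted. Each knockout line is compared with another line, so the loss of the factor and other differences between the lines cannot be told apart. No label states whether a group's libraries stem from separate cultures, and the errors and p-values here measure their spread alone, which may be technical.

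Values are normalised reads, whole reads divided by a size factor of the library, recovered from the deposited group means. No replicate number goes with a recovered library, and within a group they are lettered A to C and printed in that order. Library A is by definition the one that correlates least with its 2 partners in exons. Its mean r was 0.855, 0.768, 0.813 and 0.795 in Dicer1 KO, TFC, Dgcr8 KO and V6.5. The next lowest library of each group had 0.856, 0.775, 0.859 and 0.841. Exonic depth was 5889725 to 31406180 reads per library, lowest in V6.5 A, and intronic depth 559057 to 5597604. Dicer1 itself had 1333.5 to 1762.9 exonic reads in Dicer1 KO and 2943.8 to 3496.4 in TFC. Dgcr8 had 342.1 to 1113.6 in Dgcr8 KO and 1929.8 to 2947.1 in V6.5. The deleted part is not named, so these levels check neither allele. The 10 ESC markers were detected in all 4 groups, and Krt5, a keratin of stratified epithelia, was at 0 in every library.

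By mean exonic reads, Krt7, Krt8 and Krt18 were higher in Dicer1 KO than in TFC and Krt19 was lower, while all 4 keratins were lower in Dgcr8 KO than in V6.5. Dsp was higher in Dicer1 KO and lower in Dgcr8 KO, Pkp2 was lower in both knockouts, and Jup had a higher mean in both. Each fold change below is the knockout mean minus the wild-type mean of log2(value + 1), with the standard error (SE) of the limma fit over the whole table, 3 libraries against 3.

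**Figure D1:**
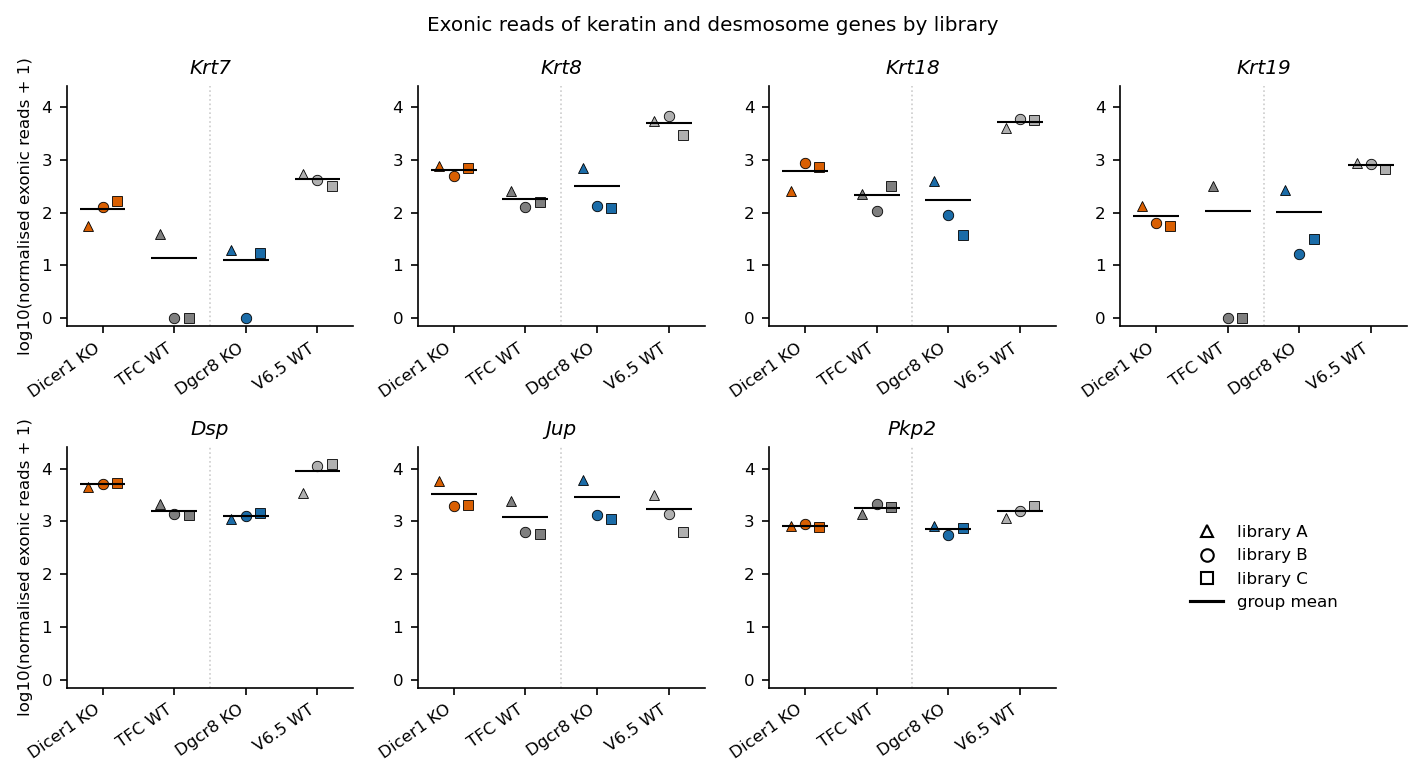
Exonic normalised reads of the 7 genes in each library, as log10 of the value plus 1, with each knockout left of its wild-type line. Symbols mark libraries A, B and C and the line marks the group mean. Krt8 and Krt18 are highest in V6.5, and Jup is highest in library A of every group. The tables of the 2 pairs were scaled separately.

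Krt8, the type II chain of the first embryonic keratin pair, had 761.7, 493.0 and 698.5 reads in the Dicer1 KO libraries and 251.4, 125.1 and 158.2 reads in the TFC libraries. Every knockout library lay above every TFC library, and the log2 fold change was 1.90 (SE 0.47). In Dgcr8 KO, Krt8 had 686.8, 132.1 and 123.1 reads, against 5352.5, 6907.6 and 2999.7 in V6.5. Library A of the knockout was several times above B and C, yet below the lowest V6.5 library. The log2 fold change was -4.42 (SE 0.68), a 16.2-fold lower mean.

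Krt18, the type I partner of Krt8, had 260.1, 883.7 and 737.0 reads in Dicer1 KO and 219.9, 107.6 and 325.0 in TFC. The groups overlapped, since knockout A lay below TFC C (log2 fold change 1.48, SE 0.63). The Dgcr8 KO libraries had 388.9, 88.6 and 36.8 Krt18 reads, against 4083.0, 5900.6 and 5642.4 in V6.5. No knockout library came near V6.5, and the mean was 30.4-fold lower (log2 fold change -5.55, SE 0.76). The 2 genes are neighbours on chromosome 15 (GENCODE M21, GRCm38): Krt8 at chr15:101996698-102004482 on the minus strand, and Krt18 at chr15:102028180-102032027 on the plus strand. Their starts lie 23.7 kb apart and point away from each other.

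Krt7, a type II keratin of glandular and trophoblast epithelia, is on the same chromosome at chr15:101411043-101430313, plus strand. It had 55.0, 129.5 and 167.3 reads in Dicer1 KO, against 38.5, 0 and 0 in TFC. The log2 fold change of 4.97 (SE 1.79) rests on 2 TFC libraries at 0, and within library A alone it was 0.50. In Dgcr8 KO, Krt7 had 18.4, 0 and 16.0 reads, against 540.8, 416.4 and 318.8 in V6.5. This was the lowest mean relative to wild type among the 7 genes, 37.2-fold lower (log2 fold change -5.92, SE 1.18).

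Krt19, a type I keratin that pairs with Krt8 or Krt7, lies at chr11:100140810-100148665, minus strand. It had 134.2, 63.6 and 55.8 reads in Dicer1 KO and 324.2, 0 and 0 in TFC. Its mean was lower in the knockout, 84.5 against 108.1 reads, while the log2 fold change was 3.52 (SE 2.25). The 2 measures differ in sign because TFC A was the highest library of the 6 and TFC B and C were at 0. In Dgcr8 KO, Krt19 had 265.4, 15.5 and 31.2 reads, against 865.9, 826.5 and 667.8 in V6.5 (log2 fold change -3.91, SE 0.95). The groups did not overlap there.

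Dsp, the plaque protein that binds keratin filaments, lies at chr13:38151294-38198577, plus strand. It had 4495.8, 5120.6 and 5391.4 reads in Dicer1 KO, against 2137.1, 1374.4 and 1297.3 in TFC. The knockout libraries lay close together and all above TFC (log2 fold change 1.67, SE 0.26). Dgcr8 KO had 1112.3, 1269.4 and 1429.4 Dsp reads, against 3453.2, 11173.3 and 12214.0 in V6.5. All V6.5 libraries were above the knockout, but V6.5 A stood well below B and C (log2 fold change -2.62, SE 0.48).

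Jup, the plakoglobin that works in desmosomes and adherens junctions, lies at chr11:100368958-100397763, minus strand. It had 5892.6, 1939.0 and 2072.9 reads in Dicer1 KO, against 2449.5, 630.3 and 571.0 in TFC (log2 fold change 1.58, SE 0.61). In Dgcr8 KO it had 6107.8, 1333.9 and 1095.3 reads, against 3095.2, 1371.7 and 637.6 in V6.5 (log2 fold change 0.57, SE 0.77). Both pairs overlapped, and library A was the highest of its group in all 4 groups. Without Dgcr8 KO A, the Dgcr8 fold change was -0.21, and without V6.5 A it was 1.15. With A left out of both groups it was 0.37, so its sign and size depended on the libraries used.

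Pkp2, the plakophilin of heart and simple epithelia, lies at chr16:16213318-16272712, plus strand. It had 827.5, 904.2 and 764.9 reads in Dicer1 KO, against 1386.6, 2096.0 and 1835.2 in TFC (log2 fold change -1.07, SE 0.26). Its Dgcr8 KO values were 823.6, 544.6 and 749.1 reads, against 1175.6, 1546.8 and 1930.2 in V6.5 (log2 fold change -1.13, SE 0.31). Neither pair overlapped. Pkp2 was thus below wild type in both knockouts, in every library.

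In Dicer1 KO, 1 of the 7 genes (Dsp) passed limma's Benjamini-Hochberg adjusted p of 0.05 as higher and 0 as lower, where 1.02% and 0.228% of 13172 genes tested did. Of the 7, 3 lay above TFC without overlap and 1 below, where 11.7% and 9.63% of all genes did. By limma-voom 0 members passed. At an unadjusted p under 0.05 limma gave 6 members, and 1904 of all 13172 genes. In Dgcr8 KO, 2 genes (Krt8, Krt18) passed as lower and 0 as higher, where 0.518% and 0.746% of 12741 genes did. Of the 7, 6 lay below V6.5 without overlap, where 11.9% did. By limma-voom 1 member passed. At an unadjusted p under 0.05 limma gave 6 members, and 2068 of all 12741 genes. The genes were picked from these contrasts, so nothing is read from the counts. The median log2 fold change of the 7 was 1.68 in Dicer1 KO, beside -0.01 for all genes, and -3.91 in Dgcr8 KO, beside -0.08. The counts of all genes at an unadjusted p also stand beside those of the exonic lists below.

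**Figure D2:**
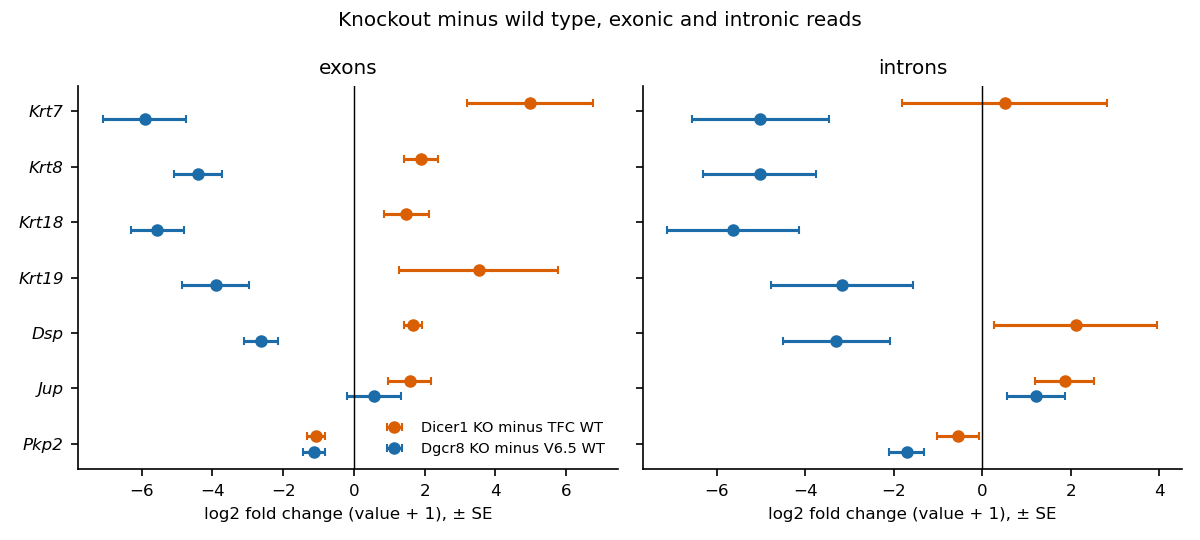
Log2 fold change of the 7 genes with its standard error, knockout minus wild type, from exonic reads (left) and intronic reads (right). Genes without a point had too few intronic reads to be tested. In exons the 4 keratins and Dsp lie on opposite sides of 0 in the 2 knockouts, and Pkp2 lies below 0 in both.

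Intronic reads, which come mostly from unspliced transcripts, were few for these genes. In the Dicer pair, 4 of the 7 genes (Krt7, Dsp, Jup and Pkp2) had a mean of at least 10 normalised intronic reads over the 6 libraries. Krt8 had 8.8, 50.9 and 0 intronic reads in Dicer1 KO and Krt18 had 5.0, 0 and 42.3, and both were listed at 0 in all 3 TFC libraries. Jup had 236.6, 163.0 and 237.1 in Dicer1 KO, against 66.5, 31.1 and 88.0 in TFC. All Jup knockout libraries lay above TFC (log2 fold change 1.86, SE 0.66), with 9.27% of 11625 genes above without overlap. None of the 4 passed limma's adjusted p, where 0.353% of genes did. That is 0 genes also by limma-voom, and 1 at an unadjusted p under 0.05, as were 1176 of all 11625 genes.

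In the Dgcr8 pair all 7 genes were tested in introns, and 5 lay below V6.5 without overlap, where 10.1% of 10748 genes did. Krt8 had 0, 0 and 20.8 intronic reads in Dgcr8 KO, against 80.0, 99.0 and 92.3 in V6.5. Krt18 was at 0 in all 3 knockout libraries and had 20.7, 177.2 and 29.9 in V6.5. Krt7 was also at 0 in the knockout, against 23.7, 17.8 and 71.1. The exonic and the intronic reads of these keratins thus lay on the same side of V6.5. Pkp2, with 66.6, 100.9 and 155.2 intronic reads in Dgcr8 KO and 236.9, 404.6 and 382.9 in V6.5, passed limma's adjusted p as lower (log2 fold change -1.70, SE 0.39), where 0.409% of genes did. By limma-voom it passed too, and of the 6 fits that leave out 1 library it passed in that without Dgcr8 KO C alone. It missed the threshold under TMM scaling, with no variance trend and in libraries B and C alone. Jup had 216.8, 119.3 and 99.6 in Dgcr8 KO and 124.4, 17.0 and 91.1 in V6.5, with overlap.

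Divided by exon length, the order of the 7 genes differed between the lines. In Dicer1 KO, Jup led with a mean of 659.1 normalised reads per kb, followed by Dsp with 521.5, Krt18 with 447.8, Krt8 with 360.7 and Pkp2 with 287.9, with Krt7 at 73.9 and Krt19 at 59.7. Among neighbours in that order, the libraries of Pkp2 and Krt7 did not overlap and those of all other neighbours did. In TFC, Pkp2 led with 613.1 per kb and Krt7 was last with 8.09. In Dgcr8 KO, Jup led with 568.1 and Krt7 was last with 7.22, and in both of these lines all neighbours overlapped.

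V6.5 had another order. Krt18 led there with 3720 normalised reads per kb and Krt8 followed with 2818, above 98.7% and 98.2% of all genes. The libraries of Krt8 and Dsp, which had 932.7 per kb, did not overlap. In Dgcr8 KO the mean of Krt18 was 122.4 per kb and that of Krt8 174.0, above 63.3% and 68.8% of genes. The high keratin levels of this comparison are those of the V6.5 line. TFC, also wild type, stood above 62.9% and 56.4% of genes of its own table for Krt18 and Krt8.

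**Figure D3:**
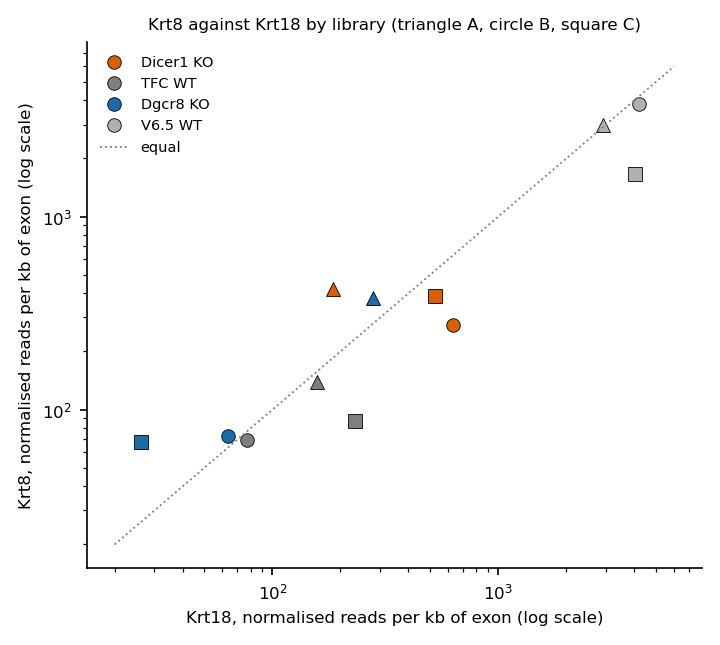
Krt8 against Krt18 in each of 12 libraries, in normalised reads per kb of exon on log axes, with the line of equal levels. The V6.5 libraries lie apart at the top right, and the ratio of Krt8 to Krt18 runs from 0.378 to 2.60.

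Type I and type II chains pair one to one in the filament, and the ratio of their RNA was followed in each library. Krt8 per kb over Krt18 per kb was 2.27, 0.433 and 0.735 in Dicer1 KO and 0.887, 0.902 and 0.378 in TFC. In Dgcr8 KO it was 1.37, 1.16 and 2.60, and in V6.5 1.02, 0.908 and 0.412. Dicer1 KO A lay above the TFC libraries, and Dicer1 KO B and C within their range. The Dgcr8 KO libraries lay above those of V6.5, at low levels of both genes. With Krt7 added to Krt8 and Krt19 added to Krt18, the Dgcr8 pair overlapped. That ratio was 0.843, 0.986 and 1.62 in Dgcr8 KO and 0.937, 0.852 and 0.414 in V6.5. In the Dicer pair it was 1.63, 0.525 and 0.870 in Dicer1 KO and 0.424, 0.902 and 0.378 in TFC. Of the type II reads per kb of Krt7 and Krt8, Krt8 held 77.0 to 92.4% in Dicer1 KO and 85.2 to 100% in TFC, and 87.1 to 100% in Dgcr8 KO and 89.2 to 93.6% in V6.5.

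Within groups the members did not vary as 1 unit. The deviation of each library from its group mean (log2 scale) was correlated between genes over the 12 libraries, which share preparation and depth within a library. Krt7 and Krt19 had r = 0.842 and Krt8 and Jup 0.821, while the pair partners Krt8 and Krt18 had 0.625. Without the 4 A libraries these were 0.941, 0.872 and 0.221. Only B and C then remained in each group, so each group gave 1 difference and these values rest on 4 differences. The values for Krt7 and Krt19 rest on few reads, since both genes were at 0 in TFC B and C, and Krt7 also in Dgcr8 KO B. Dsp and Jup, which meet in the desmosomal plaque, had -0.361.

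Jup in library A was 1.55, 2.03, 2.34 and 1.73 log2 units above the mean of B and C in Dicer1 KO, TFC, Dgcr8 KO and V6.5. The summed reads of the 10 keratinocyte markers moved with it. In library A they were 7400 in Dicer1 KO, 2048 in TFC, 4191 in Dgcr8 KO and 5789 in V6.5. In B and C they were 843 to 1358 in Dicer1 KO, 123 to 391 in TFC, 276 to 342 in Dgcr8 KO and 429 to 782 in V6.5. Most of that sum was Sfn, the 14-3-3 sigma gene, with 6347.5 reads in Dicer1 KO A. Krt10 of the same list had 10.7 reads in TFC A and 82.5 and 169.7 in B and C. Krt5 and Ivl were at 0 in all libraries, and the part of the marker list in the Jup values was not tested. The excess in A was not confined to this list. Sums of the ESC and of the trophoblast markers were also highest in A of every group. Utf1, an ESC marker, had 5938.6 reads in Dicer1 KO A and 261.3 and 284.2 in B and C. Primitive endoderm sums were lowest in A of Dicer1 KO, TFC and V6.5.

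**Figure D4:**
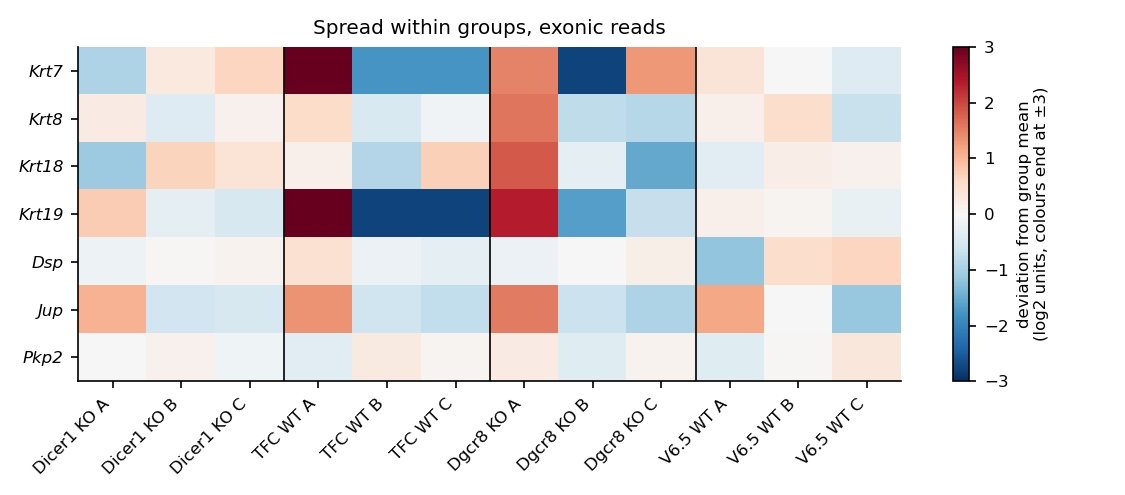
Deviation of each library from its group mean for the 7 genes, in log2 units of exonic reads, with each knockout left of its wild-type line. Jup is above its group mean in library A of all 4 groups, and Krt7 and Krt19 in TFC A stand out because TFC B and C are at 0.

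The fold changes were also taken within library A and within B and C. No label pairs the A library of a knockout with that of its wild type. In Dicer1 KO Krt18 differed by 0.24 between the A libraries and by 2.10 between B and C together. That of Krt8 was 1.60 and 2.05, and that of Dsp 1.07 and 1.98. For Krt19 the sign differed, -1.27 within A and 5.92 within B and C. In Dgcr8 KO all 4 keratins were smaller in size within A: Krt18 had -3.39 within A and -6.63 within B and C, and Krt8 -2.96 and -5.15. Jup had 0.98 and 0.37. The direction was the same in both sets for all members but Krt19 in Dicer1 KO.

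Of the other desmosome genes, 7 of 15 had enough exonic reads in each pair. In Dicer1 KO all 7 had fold changes above 0, with a median of 0.95, and 0 passed limma's adjusted p (1 at an unadjusted p under 0.05, 0 by limma-voom). Perp, Dsg2, Sfn and Cdh1 are named in the text after their values were seen. Perp, a tetraspan protein of desmosomes, had 1322.0, 2169.6 and 2095.5 reads in Dicer1 KO and 906.7, 940.4 and 975.1 in TFC. Evpl, envoplakin, had the largest fold change, 2.09 (SE 2.03). In Dgcr8 KO 5 of 7 were below 0, with a median of -1.13, and 1 passed.

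That gene was Ppl, periplakin, a plakin that joins the plaque to keratins. It fell to 85.1, 69.9 and 118.3 reads in Dgcr8 KO, against 431.7, 1064.2 and 991.4 in V6.5 (log2 fold change -3.10, SE 0.49; limma adjusted p = 0.0358). By limma-voom it missed the threshold (adjusted p = 0.0525). Dsc2, the desmocollin of simple epithelia, had 17.5, 18.6 and 95.9 reads in Dgcr8 KO and 269.2, 1802.6 and 1743.7 in V6.5. Its difference was larger but missed the threshold (log2 fold change -4.85, SE 0.95; limma adjusted p = 0.0585). Dsg2, the desmoglein of simple epithelia, had 1307.6 to 1714.0 reads in Dgcr8 KO and 2295.4 to 4024.6 in V6.5.

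Of 22 other keratins listed, 5 were tested in the Dicer pair and 4 in the Dgcr8 pair, and none passed limma's adjusted p in either. In Dicer1 KO 1 had an unadjusted p under 0.05 and in Dgcr8 KO 0, and limma-voom called 0 in both. Krt17, a type I keratin of appendages and stressed epithelium, had the largest fold change in both. It had 3113.7, 599.8 and 664.0 reads in Dicer1 KO and 535.0, 0 and 17.3 in TFC. In Dgcr8 KO it had 2663.2, 184.1 and 62.4, against 365.6, 39.9 and 0 in V6.5. Krt17 was highest in library A of each group and, unlike the 4 simple keratins, its mean was higher in both knockouts.

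Vim, the vimentin of mesenchymal cells, is an intermediate filament gene of another type. It had 8530.3, 7310.6 and 5678.3 reads in Dicer1 KO and 2783.4, 4697.2 and 4759.2 in TFC. In Dgcr8 KO it had 10850.9, 5974.8 and 6206.2, against 2051.6, 2700.8 and 3415.7 in V6.5. Neither pair overlapped, but Vim passed limma's adjusted p in neither. It is named here after its values were seen. Among the 18 filament genes and partners, 0 passed in either pair (3 and 5 at an unadjusted p under 0.05 in the Dicer and the Dgcr8 pair, 0 by limma-voom). The largest fold change was that of Pof1b in Dicer1 KO (4.84, SE 1.55) and of Gfap in Dgcr8 KO (3.47, SE 1.40).

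Among adherens and tight junction genes, Cldn6, a claudin of early embryonic epithelium, fell in Dgcr8 KO. It had 391.4, 62.1 and 110.3 reads there, against 2960.7, 3198.0 and 3490.6 in V6.5 (log2 fold change -4.52, SE 0.62; limma adjusted p = 0.0263). It was the single gene of 25 tested that passed in that pair. In Dicer1 KO 0 of 24 passed (5 at an unadjusted p under 0.05, 0 by limma-voom). The largest fold change there was that of Marveld3, a tight junction protein, with 62.6, 0 and 5.3 reads in Dicer1 KO and 204.4, 87.5 and 123.7 in TFC (-4.15, SE 1.65). In Dgcr8 KO Marveld3 had 49.2, 9.3 and 9.6 reads, against 167.6, 217.7 and 309.2 in V6.5. Cdh1, E-cadherin, had 8259.3 to 12655.0 reads in Dicer1 KO and 11647.5 to 14514.4 in TFC. In Dgcr8 KO Cdh1 had 8890.3 to 10105.4 reads and in V6.5 12921.7 to 25661.6. It is named after its values were seen, and it passed in neither pair.

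**Figure D5:**
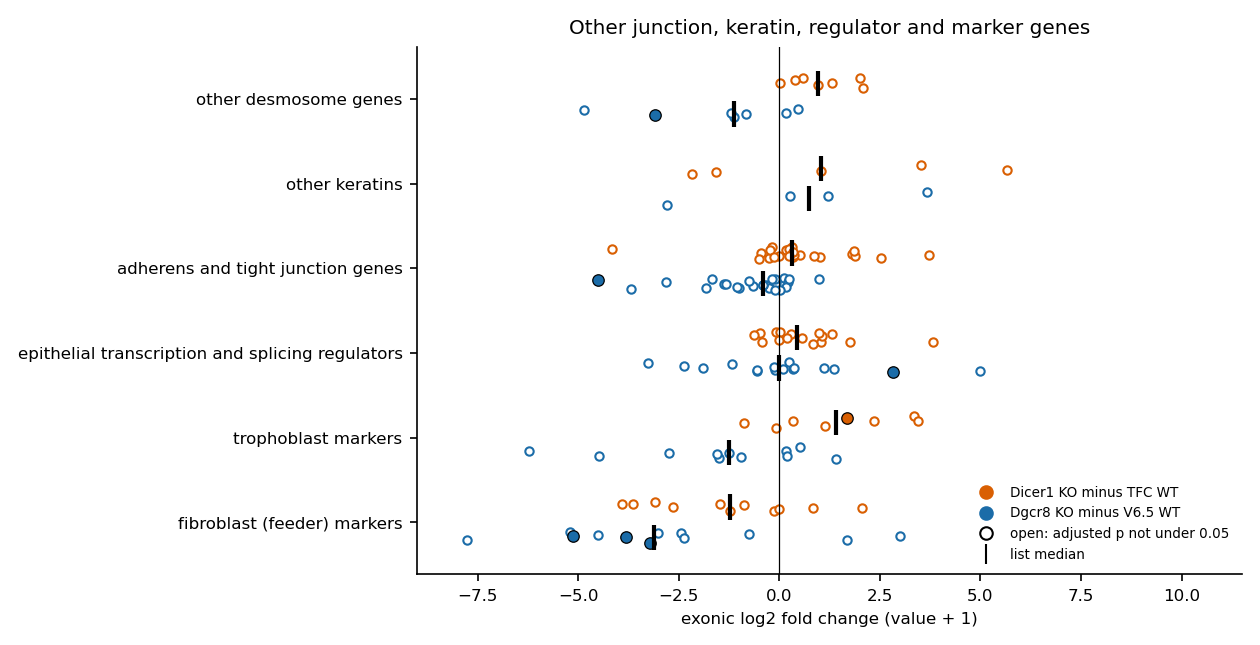
Exonic log2 fold change of the tested genes of 6 lists, knockout minus wild type, with Dicer1 KO in orange and Dgcr8 KO in blue. Filled points passed limma's adjusted p of 0.05 and bars mark list medians. The median of the other desmosome genes is 0.95 in Dicer1 KO and -1.13 in Dgcr8 KO, and that of the fibroblast markers -1.23 and -3.12.

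Of 16 regulators of epithelial genes tested, Zeb1, a repressor of epithelial genes, was the single one that passed. It rose to 693.9, 1232.9 and 1138.4 reads in Dgcr8 KO, against 172.7, 96.2 and 162.6 in V6.5 (log2 fold change 2.82, SE 0.41; limma adjusted p = 0.0307), but missed the threshold by limma-voom (adjusted p = 0.0594). In Dicer1 KO, Zeb1 had 1344.4, 1744.7 and 1528.5 reads and in TFC 413.5, 1049.2 and 552.3, without overlap (1.30, SE 0.37), and did not pass. Zeb1 was thus above wild type in every library of both knockouts, while Krt7, Krt8 and Dsp lay on opposite sides. The part of Zeb1 in the values of the members was not tested. Zeb2, the relative of Zeb1, had fold changes of 0.20 and -0.13. In Dicer1 KO 0 of the 16 passed (3 at an unadjusted p under 0.05, 0 by limma-voom).

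Grhl2, an activator of junction genes, had 1112.4, 1936.7 and 1359.8 reads in Dicer1 KO and 498.6, 1078.0 and 681.7 in TFC. In Dgcr8 KO it had 819.0, 605.9 and 811.4, against 1295.0, 1193.9 and 825.6 in V6.5. The groups did not overlap in either pair, and neither difference passed. Ehf, an Ets factor of epithelia, had the largest fold change of the list in both pairs, 3.81 (SE 1.66) and 4.99 (SE 1.50). Klf4 and Klf5, factors of ESCs and of epithelia, had -0.43 and -0.48 in Dicer1 KO and 1.11 and 0.33 in Dgcr8 KO, and Ovol1 had -0.63 and -1.18, none of which passed.

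Markers of other cells were read beside these values. Of the trophoblast markers, Ets2 rose in Dicer1 KO, with 1352.1, 1528.9 and 1649.3 reads against 558.5, 387.7 and 466.0 in TFC (log2 fold change 1.69, SE 0.29; limma adjusted p = 0.0361). By limma-voom its adjusted p was 0.0614. Of the 8 tested in Dicer1 KO, 6 had fold changes above 0. In Dgcr8 KO 4 of 11 were above 0 and 7 below, and 0 passed limma's adjusted p (3 at an unadjusted p under 0.05, 0 by limma-voom). Tead4, a trophectoderm factor named after its values were seen, had 874.9, 762.1 and 791.5 reads in Dgcr8 KO and 485.0, 348.4 and 169.0 in V6.5. Ets2 had 1399.4, 887.2 and 968.9 in Dgcr8 KO and 711.0, 664.1 and 863.9 in V6.5, so both lay above V6.5 without overlap. Gata3, a trophectoderm factor, had 80.5, 75.0 and 50.5 reads in Dicer1 KO and 6.4, 2.5 and 8.6 in TFC. In Dgcr8 KO Gata3 had 56.7, 20.2 and 24.0 reads, against 127.0, 88.9 and 57.4 in V6.5. Cdx2, the trophectoderm homeobox factor, had 6.7, 0 and 0 reads in Dgcr8 KO, against 96.5, 194.1 and 162.6 in V6.5 (-6.21, SE 1.13; limma adjusted p = 0.0501). In the Dicer pair Cdx2 was too low to test. The summed trophoblast markers ranged from 5192 to 7482 in Dicer1 KO and 2266 to 6614 in TFC, and from 3041 to 4026 in Dgcr8 KO and 2459 to 4360 in V6.5. Tpbpa, a marker of placental trophoblast, was at 0 in all libraries.

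Of the fibroblast markers, which feeder cells would also bring, Col1a1, Acta2 and Tagln fell in Dgcr8 KO. Their log2 fold changes were -5.12, -3.80 and -3.22, with limma adjusted p from 0.0248 to 0.0337. By limma-voom the adjusted p was 0.0377 for Col1a1 and 0.0464 for Acta2, and Tagln missed the threshold at 0.0525. Of the 12 tested in that pair, 2 had fold changes above 0 and 10 below. The 13 markers summed to 854 to 2256 reads in Dgcr8 KO and 6376 to 14536 in V6.5, none of them at 0 throughout V6.5. In the Dicer pair they summed to 798 to 1406 in Dicer1 KO and 875 to 1336 in TFC. Markers at 0 in all libraries of the group numbered 5 in Dicer1 KO and 0 in TFC. Of the 11 tested in the Dicer pair, 2 had fold changes above 0 and 9 below. There 0 passed limma's adjusted p (2 at an unadjusted p under 0.05, 0 by limma-voom). The V6.5 libraries thus held both the high keratin and the high fibroblast marker reads. The part of other cells in the Dgcr8 comparison was not tested, and in bulk RNA fewer cells of a type and less RNA per cell cannot be told apart.

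Of 12 primitive endoderm markers tested in Dicer1 KO, 5 had fold changes above 0 and 7 below, with a median of -0.13. Col4a2 and Sparc, of basement membrane, rose in Dicer1 KO (log2 fold changes 2.43 and 2.30, limma adjusted p = 0.0454 and 0.0277). By limma-voom Sparc passed (adjusted p = 0.0409) and Col4a2 missed the threshold (0.0817). Sox7, an endoderm factor named after its values were seen, had 0 to 13.6 reads in Dicer1 KO and 115.1 to 185.1 in TFC (-4.67, SE 1.45), without overlap, and did not pass. Col4a1 had 4.78 (SE 1.49) and did not pass. Dab2, an endocytic adaptor, fell in Dgcr8 KO to 35.9, 7.8 and 20.8 reads, against 299.6, 596.0 and 964.3 in V6.5 (limma adjusted p = 0.0337), and missed the threshold by limma-voom (adjusted p = 0.0698). Of the 12 markers tested there, 4 were above 0 and 8 below. The sums of the 16 listed markers, to which Sparc gave most of the reads in Dicer1 KO, were 20416 to 31919 in Dicer1 KO and 8676 to 11108 in TFC, and 13957 to 14531 in Dgcr8 KO and 15540 to 25374 in V6.5. Sox17 and Afp were at 0 in Dicer1 KO, and Afp and Ttr in Dgcr8 KO.

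The sums over 8 of the 10 ESC markers leave out Dppa5a and Sox2, which have no recovered libraries in some groups. They were 88644 to 115393 in Dicer1 KO and 64588 to 99115 in TFC. In Dgcr8 KO they were 63572 to 97456, and in V6.5 24143 to 71645, with V6.5 B and C the lowest of the 6. Fgf4, a growth factor of ESCs, had the largest fold change among the ESC markers tested in both pairs, 0.83 (SE 0.23) and 2.35 (SE 0.48), without passing. Dppa5a was not tested, and its deposited means were 44716 in Dicer1 KO and 18226 in TFC, and 31119 in Dgcr8 KO and 15117 in V6.5. In that list 0 genes passed in either pair (1 and 5 at an unadjusted p under 0.05 in the Dicer and the Dgcr8 pair, 0 by limma-voom). In Dgcr8 KO Fgf4 had 9766.1, 10441.0 and 12015.0 reads, against 4667.0, 1471.5 and 1335.7 in V6.5. Within V6.5, Fgf4 was highest in library A, where Dsp, Krt18 and Pkp2 were lowest and Krt7, Krt19 and Jup were highest. Krt8 in A lay between B and C. Of the keratinocyte markers 0 passed in either pair (1 and 0 at an unadjusted p under 0.05, 0 by limma-voom), with the largest fold changes in Itgb4 (5.12, SE 1.81) in Dicer1 KO and Col17a1 (2.13, SE 1.47) in Dgcr8 KO.

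The exonic calls depend on single libraries. In the Dicer pair 0 of all genes passed without Dicer1 KO B, Dicer1 KO C or TFC C, and in the Dgcr8 pair 0 passed without B or C of either group. At an unadjusted p under 0.05 limma still gave 1154 to 1512 genes in the Dicer pair and 1272 to 1499 in the Dgcr8 pair.

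The genes whose exonic profile was most like the mean profile of the 7 were sought over 12 libraries and 12320 genes, after centring each table. Cgn, cingulin of tight junctions, had r = 0.974, Igsf1 0.956, Rln1, a relaxin, 0.945, Stx11, a syntaxin, 0.941 and Ripk4, a kinase of epidermal differentiation, 0.940. Igsf1, Rln1 and Stx11 were low, with means of 29.6, 32.5 and 34.0 reads in Dicer1 KO and 24.6, 6.24 and 14.4 in TFC. Their means were 8.90, 1.67 and 3.59 in Dgcr8 KO and 87.1, 20.1 and 42.2 in V6.5. Cgn had means of 1552 reads in Dicer1 KO and 823 in TFC, and of 729.0 in Dgcr8 KO and 2207 in V6.5. Its intronic reads fell in Dgcr8 KO, to 41.0, 20.6 and 17.4 against 91.8, 240.6 and 306.9 in V6.5 (limma adjusted p = 0.026). It passed in 2 of the 6 fits that leave out 1 library, those without Dgcr8 KO A or V6.5 A, and missed the threshold with no variance trend. The members themselves, each of them part of that mean, ranged from r = 0.959 for Krt7 to 0.399 for Jup and 0.182 for Pkp2. Genes with wide log2 differences weigh most in it, so that the mean profile is mainly that of the keratins and Dsp.

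Promoter sequence was compared because Zeb factors, Klf and Sp factors and others bind short motifs near epithelial genes. RefSeq promoters (GRCm38.p6, 250 bases before to 50 after the annotated start) were matched for 5 of the 7 genes, and Krt19 and Pkp2 had no entry. The 6-base E-box CAGGTG, a motif that Zeb and Snail factors bind, was found on either strand once each in Krt7, Krt8, Krt18 and Dsp and not in Jup. It is held by 20.2% of 32851 promoters. The GC box GGGCGG was found 4 times in Krt7, 4 in Dsp and 2 in Jup, and not in Krt8 or Krt18, against 35.7% of promoters. These 5 promoters held 58.0% (Krt8) to 73.0% (Dsp) G and C, beside a median of 52.7% for all promoters. The shares of promoters with a motif were not adjusted for this. The motifs TGANTCA (AP-1), GGAATG (Tead) and ACCGGT (Grhl) were in none of the 5, and in 7.81%, 14.7% and 2.33% of all promoters. The 4 promoters with the E-box follow, with CAGGTG or its reverse complement and GGGCGG or its reverse complement in capitals. No motif overlaps another. The RefSeq starts of Krt7, Krt8 and Krt18 lie inside the GENCODE genes, that of Krt7 furthest in.
Krt8 promoter, chr15:102004293-102004592, minus strand: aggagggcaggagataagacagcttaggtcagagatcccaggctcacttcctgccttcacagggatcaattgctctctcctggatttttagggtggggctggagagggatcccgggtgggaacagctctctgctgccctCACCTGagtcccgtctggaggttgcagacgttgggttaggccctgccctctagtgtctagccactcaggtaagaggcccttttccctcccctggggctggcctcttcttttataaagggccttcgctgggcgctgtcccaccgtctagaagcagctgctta
Krt18 promoter, chr15:102027966-102028265, plus strand: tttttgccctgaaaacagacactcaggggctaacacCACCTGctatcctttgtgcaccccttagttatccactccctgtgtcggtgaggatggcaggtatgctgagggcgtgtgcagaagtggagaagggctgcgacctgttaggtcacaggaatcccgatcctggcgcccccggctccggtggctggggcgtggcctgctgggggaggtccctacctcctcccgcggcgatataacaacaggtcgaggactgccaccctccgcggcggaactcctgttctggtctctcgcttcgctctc
Krt7 promoter, chr15:101412153-101412452, plus strand: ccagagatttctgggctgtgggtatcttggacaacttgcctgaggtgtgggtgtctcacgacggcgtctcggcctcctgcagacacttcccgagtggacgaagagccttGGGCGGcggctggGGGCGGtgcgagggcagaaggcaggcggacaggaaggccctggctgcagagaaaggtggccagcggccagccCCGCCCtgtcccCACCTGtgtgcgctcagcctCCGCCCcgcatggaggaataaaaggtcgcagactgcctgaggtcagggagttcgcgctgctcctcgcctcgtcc
Dsp promoter, chr13:38151044-38151343, plus strand: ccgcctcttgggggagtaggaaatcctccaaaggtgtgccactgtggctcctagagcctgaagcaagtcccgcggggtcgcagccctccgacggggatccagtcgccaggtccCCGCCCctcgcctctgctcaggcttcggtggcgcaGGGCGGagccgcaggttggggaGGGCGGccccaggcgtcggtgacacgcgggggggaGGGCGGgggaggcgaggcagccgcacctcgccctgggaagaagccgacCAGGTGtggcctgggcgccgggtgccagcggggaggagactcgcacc

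The 3' UTRs were searched for matches to seeds (bases 2 to 8) of microRNA families known in ESCs and epithelia, a search chosen after the values were seen. In the sequences below, from RefSeq (GRCm38.p6), capitals mark the seed. The miR-290 family, main microRNAs of mouse ESCs, has the seed AAGUGCU in miR-291a-3p and miR-294-3p, and miR-17-5p the offset seed AAAGUGC. The miR-200 family of epithelia, known to act on Zeb1 and Zeb2, has AAUACUG in miR-200b-3p and AACACUG in miR-200a-3p.
mmu-miR-291a-3p: aAAGUGCUuccacuuugugugc
mmu-miR-294-3p: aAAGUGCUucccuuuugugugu
mmu-miR-17-5p: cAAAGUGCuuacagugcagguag
mmu-miR-200b-3p: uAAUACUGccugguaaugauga
mmu-miR-200a-3p: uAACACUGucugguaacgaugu

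In the longest annotated 3' UTR (GENCODE M21), Jup was the single member with a match to AAGUGCU, held by 18.2% of 13283 genes, and to AAAGUGC, held by 14.8%. Both fall in the same 8 bases, which 6.3% of genes hold, at base 205 of its 845-base 3' UTR. The stretch is shown on the strand of the transcript, with the 8 bases in capitals.
Jup 3' UTR, chr11:100371241-100371270, minus strand: gatccaggctcAGCACTTTctccccgtccc

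No member had a match to AAUACUG, held by 16.1% of genes, and Krt7 had 1 to AACACUG, held by 21.8%. Zeb1, which rose in Dgcr8 KO, had 5 matches to AAUACUG and 4 to AACACUG, and so did Zeb2, which did not pass in either pair. The seed GAGGUAG of let-7a was in none of the 7, against 11.9% of genes. The annotated 3' UTRs of Krt8, Krt18 and Krt19 are short, with 242, 66 and 103 bases beside a median of 1358, and short sequence holds fewer matches by length alone. A match is a description of sequence and no site of action.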

How the data were processed

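PolyA RNA of mouse ESCs was sequenced in 12 libraries, 3 each of Dicer1 KO, TFC, Dgcr8 KO and V6.5. Per the file headers, the authors deposited normalised reads as a signal with 1 column per genotype, in 4 tables of 18412 genes: the exons and the introns of each pair. Libraries were strand-specific, per the labels' protocols. The submitters' processing notes name mm10, DESeq and TopHat2 2.0.12. The assignment of reads to exons and introns is not given in these sources. Keratin genes can share reads with processed pseudogenes, which the authors' counting may split.

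Each deposited value is a group mean printed to 15 significant digits, a whole-number combination of 3 steps, 1 per library. Solving for the steps gave whole reads per library for 99.5 to 100% of genes per column. Genes with several solutions, at most 97 per column, were left out. On simulated exon columns of Dicer1 KO and V6.5 (18412 genes), a single solution was found for 98.3% and 99.8%, of which 100% were right. Even read numbers made up 60.2 to 80.4% of the values, so reads were not counted singly and no counting interval is given. Libraries are lettered: A correlates least with the other 2 of its group in exons, and the other 2 are ordered by size factor. Intronic libraries were matched to exonic ones by their deviations, clearly for A (r of 0.306 to 0.431 across genes) and weakly for B and C.

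limma 3.58.1 in R 4.3.3, with a variance trend, was fitted to log2(value + 1) of genes with a mean of at least 10, within each table, with 4 residual degrees of freedom. Adding 1 shrinks fold changes where levels are low. Called means a Benjamini-Hochberg adjusted p under 0.05 over all genes tested. Tested on simulated data, the Dicer exon fit found 93% of genes changed 4-fold, with 8 false calls. Across the fits this ran from 83.8% (Dgcr8 introns, 11 false calls) to 96% (Dgcr8 exons, 10 false calls). In the recovered libraries, larger exonic differences missed the threshold. Examples are Col4a1 in Dicer1 KO (log2 fold change 4.78, SE 1.49) and Dsc2 in Dgcr8 KO (-4.85, SE 0.95). The simulated shares therefore do not measure how often real changes of 4-fold were found. The table units led to limma in place of a count test.

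The members and lists were chosen with earlier results of these data known. Named were all members, each listed gene called in exons, the largest fold change per list, the 5 most alike profiles, and 8 regulators and lineage factors by name. Perp, Dsg2, Sfn, Vim, Cdh1, Tead4, Sox7 and Dppa5a were named outside this rule, after their values were seen. One listed junction gene is not reported here and was left out of its list. Motifs and seeds are exact matches. Alternatives changed the pseudocount, filter, variance trend, scaling (TMM), model (limma-voom), a term for library A, and the libraries used.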

Additional observations from a re-analysis of the deposited data

Results flagged for a closer look

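Several genes had every Dicer1 KO library on one side of TFC and every Dgcr8 KO library on the other side of V6.5. The values below are the exonic log2 fold change of Dicer1 KO minus that of Dgcr8 KO. The difference itself was not tested, since the 2 pairs were scaled in separate tables and differ in their wild-type line.

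Among the members this was 10.89 for Krt7, 6.32 for Krt8 and 4.3 for Dsp. Krt18, Krt19 and Jup overlapped in the Dicer pair, and Pkp2 was lower in both knockouts.

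Among the other named genes it was 6.99 for Rln1, 6.26 for Col4a1, 5.29 for Tagln, 4.92 for Gata3, 2.69 for Cgn and 1.55 for Grhl2. Rln1 was low, with means of 32.5 in Dicer1 KO, 6.24 in TFC, 1.67 in Dgcr8 KO and 20.1 in V6.5. In each of these 9 genes the Dicer1 KO libraries were the higher side of their pair and the Dgcr8 KO libraries the lower. The share of all genes that meet the same rule was not counted.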

How the results depend on the processing

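No paired analysis was possible because the deposited columns carry no replicate number, so a replicate block could not be fitted. The 7 genes kept the sign of their log2 fold change under all 14 alternatives in both knockouts, except Jup in Dgcr8 KO. Jup had -0.206 there without Dgcr8 KO A. Library A alone is not among the 14, and within it Krt19 in Dicer1 KO had -1.27. Mean Krt19 reads were also lower in Dicer1 KO than in TFC. The values of Dsp in Dicer1 KO ran from 1.54 to 1.98. Dsp in Dicer1 KO was called in 8 of 14 alternatives, and Krt8 and Krt18 in Dgcr8 KO in 7 and 9. The median of the members in Dgcr8 KO, -3.91, was -5.01 in libraries B and C alone, a choice made after seeing the data, and ran from -5.08 (without Dgcr8 KO A) to -3.08 (without Dgcr8 KO B) when 1 library was left out. The cause of these changes was not tested.

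In Dicer exons, 164 genes and 3 listed genes were called. These were 35 and 0 with no variance trend, 1606 and 22 with a term for library A, 21 and 1 by limma-voom, and 61 and 2 in libraries B and C alone. The letter A was picked from these same exonic values, so the counts with its term, here and below, are no independent check. Leaving out 1 library gave 0 to 483 genes and 0 to 10 listed genes. In Dgcr8 exons, 161 and 7 were called. These were 2158 and 44 with a term for library A, 49 and 3 by limma-voom, 2032 and 46 in B and C alone, and 12 listed genes with a pseudocount of 10. Leaving out 1 library gave 0 to 464 and 0 to 18.

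In Dicer introns 41 genes were called: 87 with a pseudocount of 10, 1 with no variance trend, 91 with a term for library A, 64 by limma-voom, 0 in B and C alone (1163 at an unadjusted p under 0.05) and 0 to 37 without 1 library. In Dgcr8 introns 163 were called: 315 with a pseudocount of 10, 107 with no variance trend, 451 with a term for library A and 26 to 176 without 1 library. Krt7 and Krt19 have few reads and are at 0 in whole TFC libraries, and their Dicer1 KO fold changes ran from 2.79 to 7.21 and from 1.46 to 6.31.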
